A study of Mus musculus with 24 samples.

Results

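The genes through which macrophages receive and relay lipopolysaccharide (LPS) were examined for chromatin accessibility: Lbp, Cd14 and Ly96, which handle LPS outside the cell, and Myd88, Ticam1, Ticam2, Irak4, Irak2, Traf6 and Irak3, which carry or restrain the signal inside it. Peaks of the consensus set were taken when they overlapped 1 of the 10 gene bodies (GENCODE vM21, mm10) or the 20 kb on either side, and each peak was given to the nearest of these genes. This gave 143 of 184158 consensus peaks, of which 138 passed the filter on low counts and were tested. The other 5, with at most 15 read pairs in any library, lay at Irak4 (2 peaks), Lbp, Ticam2 and Traf6. The libraries were ATAC-seq (assay for transposase-accessible chromatin) of mouse bone marrow-derived macrophages (BMDMs), in 4 groups of 6: wildtype (WT, C57/B6/J) and AhR-KO cells, each without LPS (unstimulated) and with it (LPS). AhR-KO cells came from AhR KO/KO mice (B6.129-Ahr tm1Bra/J), which lack a working aryl hydrocarbon receptor (AhR) in every tissue, and each library of a group comes from its own animal, all within 1 experiment. Mice of both sexes, aged 7 to 14 weeks and matched for age and sex, were used, and the sexes in each of these groups are not given in the sources used here. All marrow was grown with GM-CSF at 10 ng/ml and TGF-β at 2 ng/ml in 10% serum, a culture meant to resemble alveolar macrophages. LPS was given at 97 EU/ml for 24 h on day 6, followed by the calcium ionophore A23187 at 5 µM for 10 min. Every library carries this treatment text in its labels, so whether unstimulated cultures also received the ionophore is not given in the sources used here.

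LPS is a lipid of the outer membrane of Gram-negative bacteria. In blood and tissue fluid it is picked up by LBP and passed to CD14, which loads it onto MD-2 (encoded by Ly96) in complex with the receptor TLR4. Inside the cell, MyD88 assembles the kinases IRAK4 and IRAK2 and hands the signal to the ubiquitin ligase TRAF6, while TRAM (Ticam2) and TRIF (Ticam1) run a separate branch from the endosome, and IRAK-M (Irak3), made by macrophages after stimulation, holds the pathway back.

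The sequences of 5 peaks away from the start sites of these genes are shown, chosen among those that moved most or that differed by genotype. Each line gives the central 300 bases of a peak, plus strand, mm10 (read from GRCm38, the assembly behind mm10). None of the 5 windows lies over an annotated UTR. Capitals mark every match, on either strand, to 1 of 6 short motifs searched: GCGTG (the core bound by AhR with its partner), GGANTTTCC (NF-κB), TGANTCA (AP-1), GAGGAAGT (PU.1), TTGCNNAA (C/EBP) and GAAANNGAA (interferon-type element), none of which overlapped another in these windows.
Ly96 intronic peak, chr1:16694160-16694459: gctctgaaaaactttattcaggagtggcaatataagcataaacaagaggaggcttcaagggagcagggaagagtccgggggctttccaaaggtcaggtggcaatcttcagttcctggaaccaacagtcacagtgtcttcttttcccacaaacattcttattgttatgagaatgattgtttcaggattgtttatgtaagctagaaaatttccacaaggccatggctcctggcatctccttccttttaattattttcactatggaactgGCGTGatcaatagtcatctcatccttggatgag
Irak3 upstream peak, chr10:120204662-120204961: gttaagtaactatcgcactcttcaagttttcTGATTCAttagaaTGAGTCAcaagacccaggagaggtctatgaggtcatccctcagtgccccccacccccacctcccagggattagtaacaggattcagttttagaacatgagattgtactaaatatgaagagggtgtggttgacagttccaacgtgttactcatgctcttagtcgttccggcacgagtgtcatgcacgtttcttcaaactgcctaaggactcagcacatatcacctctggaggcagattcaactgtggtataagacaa
Irak4 intronic peak, chr15:94574982-94575281: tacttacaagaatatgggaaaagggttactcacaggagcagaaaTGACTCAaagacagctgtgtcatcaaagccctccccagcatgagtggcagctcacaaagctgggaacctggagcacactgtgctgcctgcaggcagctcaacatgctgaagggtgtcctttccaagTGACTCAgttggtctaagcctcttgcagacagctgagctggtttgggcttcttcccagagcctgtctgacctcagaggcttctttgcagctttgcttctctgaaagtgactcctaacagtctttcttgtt
Irak2 distal intronic peak, chr6:113680039-113680338: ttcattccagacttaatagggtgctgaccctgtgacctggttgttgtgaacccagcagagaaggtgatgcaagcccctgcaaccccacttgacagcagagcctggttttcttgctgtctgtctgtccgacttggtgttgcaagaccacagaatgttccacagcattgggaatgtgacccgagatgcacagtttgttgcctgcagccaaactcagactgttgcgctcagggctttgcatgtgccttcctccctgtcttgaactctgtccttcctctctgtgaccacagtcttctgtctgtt
Irak2 mid-gene intronic peak, chr6:113658149-113658448: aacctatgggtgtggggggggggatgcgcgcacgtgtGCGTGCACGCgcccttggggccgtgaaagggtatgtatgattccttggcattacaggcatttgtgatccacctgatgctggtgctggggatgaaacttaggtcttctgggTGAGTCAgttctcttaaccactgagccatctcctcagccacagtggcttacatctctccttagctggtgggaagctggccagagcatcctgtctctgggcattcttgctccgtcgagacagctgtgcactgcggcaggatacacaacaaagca
The Irak3 and Irak4 windows each hold 2 AP-1 motifs, the Ly96 window holds 1 AhR core, the mid-gene Irak2 window holds 2 AhR cores and 1 AP-1 motif, and the distal Irak2 window holds none of the 6. Over the central windows of all tested peaks (174106 that could be read from the assembly), 16.3% hold GCGTG, 1.81% the NF-κB letters, 18.1% the AP-1 letters, 7.49% PU.1, 15.8% C/EBP and 10.9% the interferon-type element. In the 138 windows at the LPS receptor and adaptor genes these shares were 21.7%, 1.45%, 15.2%, 5.8%, 13% and 9.42%. Only the exact letters listed were searched, and other forms of these sites were not. A match, or the lack of one, is a description of the letters only.

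Depth and cell identity were checked first. Total counts in consensus peaks ran from 8.54 to 34.6 M counts per library, and the lowest belonged to unstimulated WT replicate 5. The peak over the start site of Ahr (chr12:35534070-35535364) held 20.2 to 24.6 CPM (counts scaled to the TMM-normalized library total) in unstimulated WT against 11.5 to 15.1 in unstimulated AhR-KO, and 19 to 22.2 against 11.9 to 16.8 with LPS, without overlap (log2 -0.78 and -0.45, adjusted p 2.98e-10 and 4.52e-06, edgeR). This is accessibility and no check of the deletion itself. Start site peaks were present for 8 of 9 macrophage markers (all but Csf1r) and 7 of 8 alveolar macrophage markers (all but Krt79). For T cell and B cell markers 0 of 4 each had a tested start site peak, and for neutrophils 2 of 5, with none at Ly6g, Elane or Mpo. Mast cell and basophil markers had 1 of 4 (Gata2), epithelial markers 2 of 3 (Krt18 and Cdh1) and dendritic cell markers 4 of 4.

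Marker sums moved with the groups. The macrophage list summed to 229 to 263 CPM in unstimulated WT, 271 to 387 in unstimulated AhR-KO, 186 to 212 in LPS-treated WT and 170 to 261 in LPS-treated AhR-KO. The alveolar list summed to 54 to 59.8, 70.2 to 86.8, 46.7 to 55.3 and 53.5 to 68.4 CPM in the same order. The neutrophil list, from S100a8 and S100a9 alone, gave 19.8 to 26.1, 23.8 to 27.7, 13.8 to 21.1 and 16.4 to 18.9 CPM, the dendritic list 27.8 to 41.1, 29.5 to 35.6, 30.1 to 47.1 and 22.3 to 27.9. Epithelial sums stayed between 4.76 and 11.6 CPM and mast cell and basophil sums between 1.73 and 4.33. The part of these shifts in the results below was not tested, and a change in accessibility per cell cannot be told apart from a change in the share of cells.

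LPS opened more of these peaks than it closed, as it did over all tested peaks. Differentially accessible regions (DARs) were peaks with a fold change of 1.5 or more and an adjusted p of at most 0.05 in edgeR. In WT BMDMs, 37 of 138 peaks were higher with LPS (26.8%) and 24 lower (17.4%), where 25.4% and 21.6% of all tested peaks were called in these directions (47% in either). The 61 called peaks are 44.2% of those tested, a share near that background. In AhR-KO BMDMs 42 were higher (30.4%) and 19 lower (13.8%), again 44.2% in all, where all peaks gave 27.3% and 21.5% (48.8% in either). The 6 LPS libraries did not overlap the 6 unstimulated ones at 68 peaks in WT (49.3%, all peaks 38.7%) and at 73 in AhR-KO (52.9%, all peaks 45.6%). The median log2 fold change of the 138 peaks was 0.06 in WT and 0.12 in AhR-KO, beside -0.0141 and 0.046 over all tested peaks. A peak was a DAR in the same direction in both genotypes at 46 positions (31 higher, 15 lower), which is 75.4% of the DARs of either genotype, and in opposite directions at 0. Over all tested peaks the shared DARs were 77.8% of those in WT and 74.9% of those in AhR-KO, so the share here lies near that of the other peaks.

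The genotype moved fewer peaks. Without LPS, 12 peaks were lower and 9 higher in AhR-KO than in WT (15.2% called), where 12.6% of all peaks were lower and 9.95% higher (22.6% in either direction). With RLE size factors in place of TMM the split was 11 lower and 16 higher, and that of all peaks moved the same way, to 11.1% lower and 11.9% higher. With LPS, 10 were lower and 12 higher (15.9%), beside 13.1% and 13.4% of all peaks (26.5%). WT and AhR-KO libraries did not overlap at 36 peaks without LPS (26.1%, all peaks 21%) and at 21 with LPS (15.2%, all peaks 19.6%). Both shares of DARs lay below the background. The interaction, the genotype effect with LPS minus that without, was called at 8 peaks, 5 higher and 3 lower (5.8%), where 5.83% of all peaks were called higher and 4.58% lower (10.4%).

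**Figure D1:**
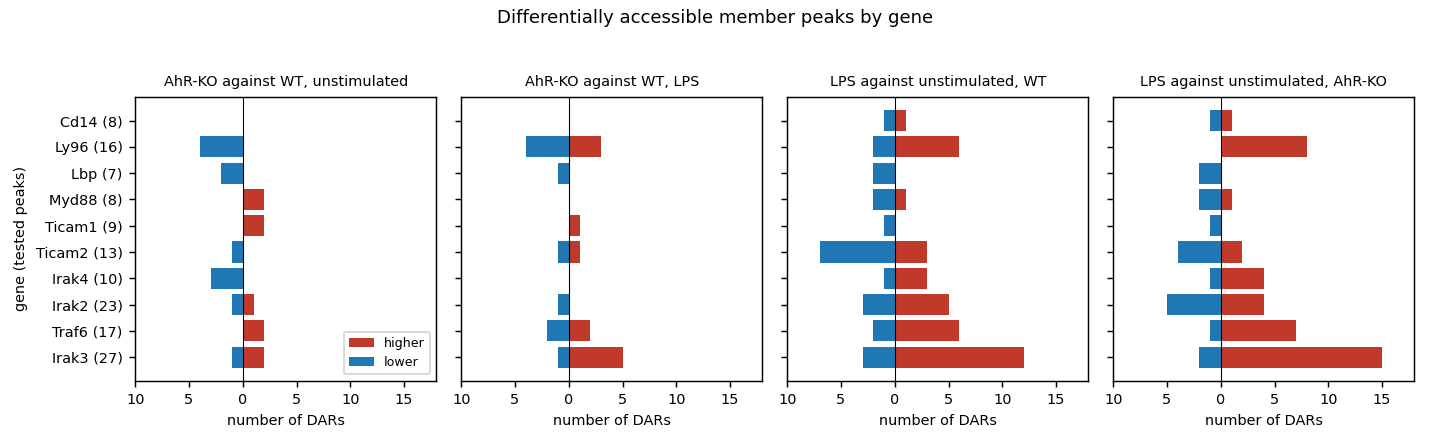
Number of DARs at each gene in the 4 pairwise comparisons, drawn to the right for higher and to the left for lower, with the number of tested peaks of each gene in brackets. Irak3, which also has the most tested peaks, has the longest bars with LPS, at 12 higher in WT and 15 in AhR-KO. Cd14 has none by genotype.

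Of the 10 peaks over a member's own start site, 1 was a DAR without LPS by genotype (Lbp, lower), 0 by genotype with LPS, and 1 with LPS in either genotype (Ticam2, lower). A further 10 peaks covered the start sites of neighbouring genes (Tmco6, Ik with Ndufa2, Oxsr1, Xylb, Fem1a, Plin3, Vhl, Tatdn2, Tmbim4 and Twf1), and 0 of these was a DAR in any comparison. The 118 tested peaks over no start site held 60 of the 61 DARs with LPS in each genotype (50.8% of the 118 called). In the whole series, 50.1% (WT) and 51.6% (AhR-KO) of the peaks over no protein-coding start site were called with LPS, and 10.4% and 15.9% of those over such a site. By genotype, the start site peaks of the whole series were called at 6.22% without LPS and 6.97% with it. Accessibility per kb of peak in unstimulated WT was highest over Irak4 at 63.6 ± 3.9 CPM per kb (SD, n = 6), followed by Myd88 at 37.7 ± 0.889 and Ticam2 at 34.4 ± 1.35. Ticam1 (25.4 ± 0.745), Traf6 (24.9 ± 1.41) and Irak2 (24.1 ± 1.94) overlapped one another in their libraries, and Ly96 (22.7 ± 1.16) overlapped Traf6 and Irak2. Irak3 (16.3 ± 1.1), Cd14 (10.7 ± 0.754) and Lbp (6.1 ± 0.933) were lowest and did not overlap. The Irak4 peak also covers the start site of Pus7l and the Myd88 peak that of Acaa1a, so these signals cannot be split between the neighbours.

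**Figure D2:**
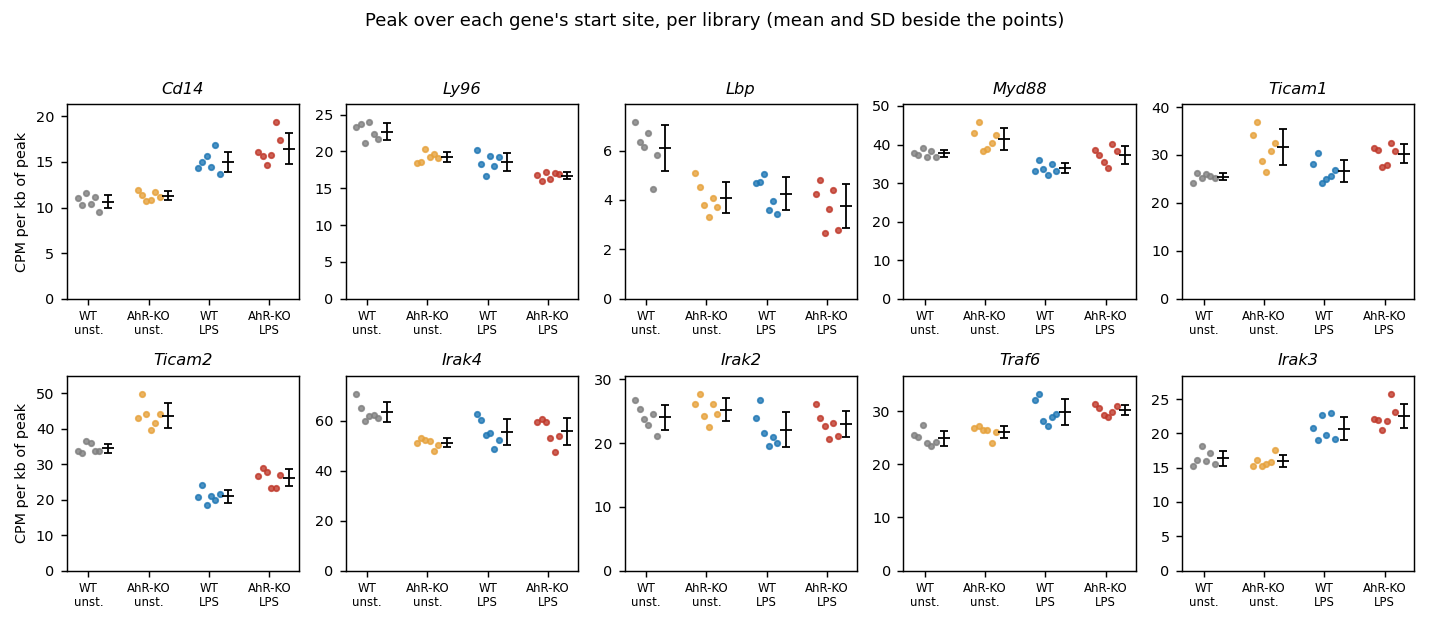
Accessibility of the peak over each gene's start site, in CPM per kb of peak, with 1 point per library and the mean and SD (n = 6) beside the points. Ticam2 is the gene whose LPS libraries sit lowest against the unstimulated ones, at 20.9 and 26.2 CPM per kb on average in WT and AhR-KO against 34.4 and 43.7.

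Among the proteins that handle LPS outside the cell, Lbp, whose product carries LPS in plasma and is made mainly by the liver, had the weakest start site signal (gene at chr2:158306493-158332852, plus strand). Its start site peak (158305985 to 158306953) ran from 4.3 to 6.93 CPM (median 6.05) in unstimulated WT and from 3.22 to 4.92 (median 3.83) in unstimulated AhR-KO. With LPS it ran from 3.32 to 4.88 (median 4.2) in WT and from 2.57 to 4.66 (median 3.82) in AhR-KO. The groups overlapped, and the genotype difference without LPS of -0.59 on the log2 scale (adjusted p 0.000689, SE 0.139) was just past the fold threshold. It was short of it without any 1 of 6 libraries: -0.55 without unstimulated WT replicate 1, -0.57 without unstimulated WT replicate 4 or unstimulated AhR-KO replicate 3 or 6, -0.54 without unstimulated AhR-KO replicate 4 and -0.58 without LPS-treated AhR-KO replicate 3, and also with RLE size factors or DESeq2 (both -0.53). The LPS change in WT of -0.54 (SE 0.135) became a DAR at -0.59 without unstimulated WT replicate 5 or LPS-treated WT replicate 3. A peak over an exon 6.94 kb into Lbp was lower in AhR-KO by genotype without LPS (log2 -0.86, adjusted p 2.91e-05, SE 0.157) and with LPS (-0.64, adjusted p 0.000663, SE 0.151), the latter falling short at -0.57 without LPS-treated WT replicate 1. An intronic peak 4.64 kb into the gene fell with LPS by 0.72 on the log2 scale in WT and by 0.94 in AhR-KO, with no overlap between LPS and unstimulated libraries.

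Cd14, the GPI-anchored co-receptor that hands LPS to the TLR4 complex, had 0 DARs by genotype among its 8 peaks, with or without LPS. Of all tested peaks, 22.6% were called by genotype without LPS and 26.5% with it. The gene is compact (chromosome 18, 36725067 to 36726798, minus strand), and 1 peak (36725457 to 36727957) covers its start site and most of its length. That peak ran from 23.8 to 29 CPM (median 26.8) in unstimulated WT, 26.7 to 29.9 (28.2) in unstimulated AhR-KO, 34.3 to 42 (36.8) in LPS-treated WT and 36.6 to 48.4 (39.7) in LPS-treated AhR-KO. All 6 LPS libraries lay above all 6 unstimulated ones in both genotypes, and the log2 changes of 0.50 (adjusted p 1.47e-08, SE 0.063) and 0.54 (adjusted p 1.05e-09, SE 0.062) were short of the fold threshold. An intergenic peak 13 kb downstream of the start site was a DAR that rose, with log2 changes of 1.07 (adjusted p 2.68e-11, SE 0.103) in WT and 1.04 (adjusted p 5.29e-12, SE 0.0959) in AhR-KO. Another, 10.8 kb downstream (36715891 to 36716151), was a DAR that fell in both genotypes. It held 1.94 to 2.7 CPM (median 2.22) in unstimulated WT and 1.32 to 1.81 (median 1.46) in LPS-treated WT, and 2.68 to 3.92 (median 2.87) and 1.23 to 2.44 (median 1.64) in AhR-KO without and with LPS. LPS and unstimulated libraries of a genotype did not overlap, and the log2 changes were -0.59 in WT (adjusted p 0.00104, SE 0.154) and -0.82 in AhR-KO (adjusted p 6.08e-06, SE 0.146). The WT value sits at the fold threshold and fell short of it in 7 of 24 fits that left out 1 library (unstimulated WT replicates 2, 5 and 6, LPS-treated WT replicates 1, 2 and 4, and LPS-treated AhR-KO replicate 3, at -0.53 to -0.58), and with RLE factors, DESeq2 or only the compared groups (-0.58). The strongest peak of the neighbourhood, 18.3 kb downstream, held 34 to 40.5 CPM in unstimulated WT and 49.5 to 56.9 in unstimulated AhR-KO without overlap, a log2 difference of 0.49 (adjusted p 7.9e-09, SE 0.0558) that was also short of the threshold.

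Ly96 encodes MD-2, the subunit that binds the lipid part of LPS, and lies at chr1:16688051-16709611 (plus strand). Of its 16 peaks, 7 were DARs by genotype with LPS (43.8%, all peaks 26.5%) and 4 without (25%, all peaks 22.6%), the latter beside 3 of 10 at Irak4 and 2 of 7 at Lbp. Among the 7, the weak peaks starting at 16680874 and 16672578 lost their calls in 3 and 1 of 24 fits that left out 1 library. The start site peak (16687942 to 16689938) was no DAR, at -0.24 and -0.16 in AhR-KO without and with LPS and -0.29 and -0.21 with LPS in WT and AhR-KO. The strongest genotype difference among all 138 peaks lay 10.3 kb upstream, over an exon of the neighbouring gene Tmem70 (16677433 to 16678053). It held 1.74 to 4.03 CPM (median 3.0) in unstimulated WT and 1.0 to 3.85 (median 2.83) in LPS-treated WT. In AhR-KO it held 0.176 to 0.595 (median 0.469) without LPS and 0.287 to 0.727 (median 0.528) with LPS. No AhR-KO library reached the lowest WT library of the same treatment, and the peak was 6.97-fold lower without LPS (log2 -2.80, adjusted p 1.13e-07, SE 0.336) and 5.2-fold lower with LPS (log2 -2.38, adjusted p 3.39e-07, SE 0.306). A library peak was called there in 5 of 6 unstimulated WT and 6 of 6 LPS-treated WT libraries, and in 0 of 6 AhR-KO libraries of either treatment.

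Inside and beyond Ly96, several weak peaks opened with LPS. The intronic peak 6.26 kb from the start site (16694069 to 16694550), whose sequence is given above, held 0.198 to 0.618 CPM (median 0.506) in unstimulated WT and 0.182 to 0.966 (median 0.412) in unstimulated AhR-KO. With LPS it held 2.44 to 8.28 (median 5.31) in WT and 2.85 to 8.35 (median 5.15) in AhR-KO. LPS and unstimulated libraries stood apart in both genotypes, with a 10.9-fold rise in WT (log2 3.44, adjusted p 8.17e-09, SE 0.362) and a 10.6-fold rise in AhR-KO (log2 3.41, adjusted p 3.99e-09, SE 0.349). A peak 38.1 kb downstream of the start site rose by 3.11 (SE 0.358) and 2.86 (SE 0.347) on the log2 scale, and its genotype differences were 0.03 without LPS (SE 0.509) and -0.23 with LPS (SE 0.243), neither called. Its neighbour at 35.6 kb (16723208 to 16724156) rose with LPS as well (1.81, SE 0.265, and 1.63, SE 0.334) but was lower in AhR-KO, at log2 -1.37 without LPS (adjusted p 0.00281, SE 0.356) and -1.55 with LPS (adjusted p 9.27e-06, SE 0.246). A library peak was called at this position in 6 of 6 LPS-treated WT and 2 of 6 LPS-treated AhR-KO libraries.

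The interaction of genotype and LPS was called upward at 3 of 16 Ly96 peaks, where 5.83% of all tested peaks were. At 2.67 kb upstream of the start site, the log2 change with LPS was 0.37 in WT (SE 0.21, not a DAR) and 1.59 in AhR-KO (SE 0.203), an interaction of 1.22 (adjusted p 0.00456, SE 0.297). At 10.8 kb into the gene it was 1.13 in WT and 2.31 in AhR-KO, an interaction of 1.17 (adjusted p 0.00776, SE 0.307). At that second peak the genotype difference without LPS (-0.80, adjusted p 0.0122, SE 0.258) was lost without unstimulated WT replicate 2 (-0.60, adjusted p 0.0765). The third peak lay 15.1 kb upstream, with an interaction of 0.91 (adjusted p 0.0461, SE 0.317) that was lost in 17 of 24 fits that left out 1 library (adjusted p up to 0.084, without LPS-treated AhR-KO replicate 2) and with RLE factors (adjusted p 0.0585). Another intronic peak, 15 kb into the gene, ran from 4.87 to 6.11 CPM in LPS-treated WT and from 9.61 to 11.3 in LPS-treated AhR-KO, a log2 difference of 0.83 (adjusted p 7.24e-08, SE 0.107) without overlap.

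**Figure D3:**
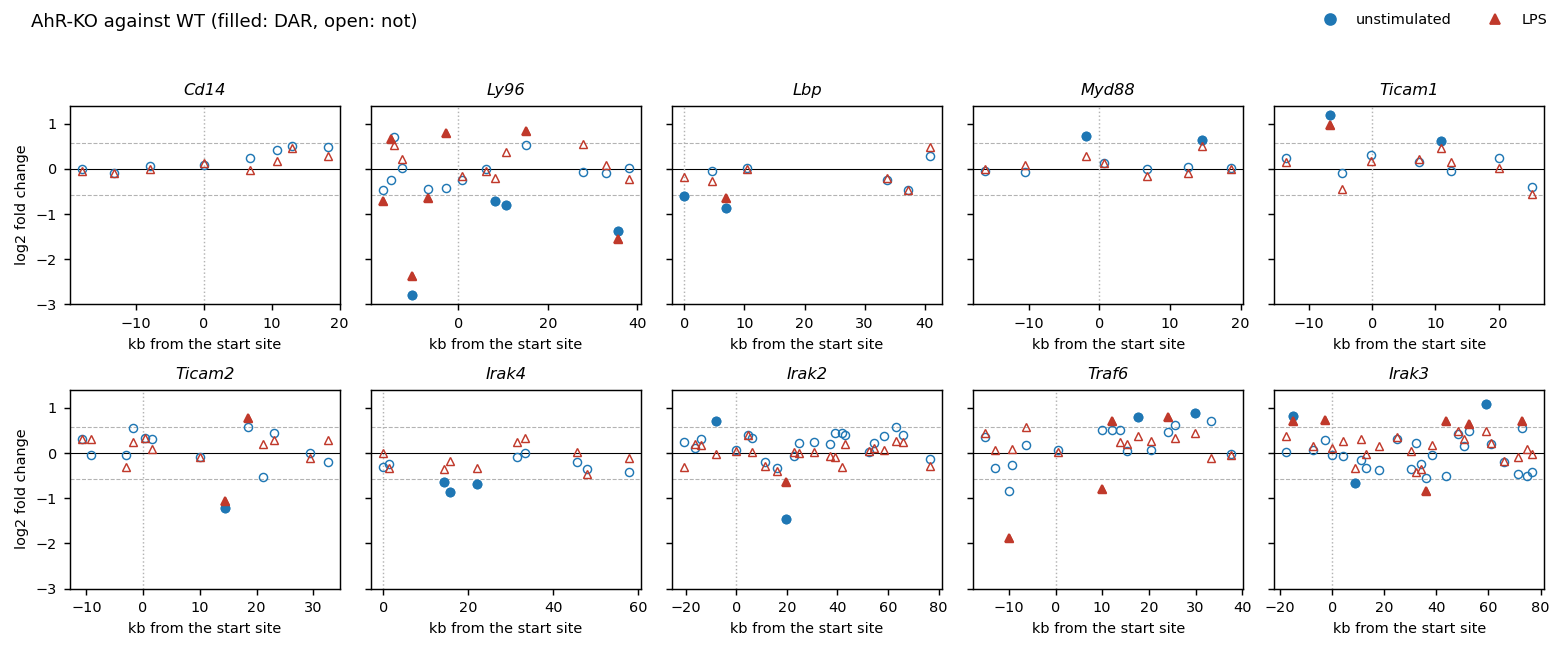
Log2 fold change of AhR-KO against WT for each tested peak, by its distance in kb from the member's start site (positive is downstream), without LPS (circles) and with LPS (triangles). Filled symbols are DARs and dashed lines mark the 1.5-fold threshold. The lowest symbols, at -2.80 and -2.38, are the Ly96 peak 10.3 kb upstream.

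Of the adaptors, Myd88, which couples TLR4 to the IRAK kinases, lies at chr9:119335934-119341411 (minus strand) inside the annotated span of Slc22a14. Its start site peak (119339652 to 119341834) held 80.1 to 85.2 CPM in unstimulated WT, 83.6 to 100 in unstimulated AhR-KO, 70.2 to 78.3 in LPS-treated WT and 74 to 87.8 in LPS-treated AhR-KO. All 4 pairwise log2 differences lay between -0.15 and 0.14, and 0 was a DAR. Peaks moved both ways downstream of the gene, where a peak 14.6 kb from the start site rose with LPS by log2 1.15 (SE 0.111) in WT and 1.02 (SE 0.102) in AhR-KO, and a peak 12.6 kb from it fell by 0.87 (SE 0.0878) and 1.01 (SE 0.0879). The first of these was higher in AhR-KO without LPS, at 4.38 to 5.0 CPM against 2.31 to 3.36 in WT without overlap (log2 0.64, adjusted p 2.9e-05, SE 0.117). With LPS the difference of 0.51 was short of the fold threshold.

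Ticam1 encodes TRIF, the adaptor that leads from TLR4 and TLR3 to interferon genes, and lies at chr17:56269319-56276786 (minus strand). The peak over its start site (56276174 to 56277641) was no DAR, with log2 values of 0.31 and 0.18 by genotype and 0.07 and -0.06 with LPS. The peak with the clearest change sat 6.68 kb upstream in an intron of Plin3, a lipid droplet protein gene (56283198 to 56283731). It ran from 2.34 to 3.47 CPM (median 2.57) in unstimulated WT and from 4.83 to 7.51 (median 6.72) in unstimulated AhR-KO. With LPS it ran from 0.746 to 1.01 (median 0.828) in WT and from 1.26 to 2.37 (median 1.64) in AhR-KO. The 4 groups did not overlap in any of the 4 pairwise comparisons. AhR-KO stood above WT by 1.2 without LPS (adjusted p 6.52e-09, SE 0.137) and 0.98 with LPS (adjusted p 7.54e-06, SE 0.165) on the log2 scale, and the peak fell with LPS by 1.67 in WT (adjusted p 3.22e-11, SE 0.162) and 1.89 in AhR-KO (adjusted p 1.31e-14, SE 0.139). A strong intergenic peak 10.8 kb downstream of the start site held 28.1 to 35 CPM in unstimulated WT and 41.8 to 53.3 in unstimulated AhR-KO (log2 0.61, adjusted p 3.66e-09, SE 0.0673). This was short of the fold threshold without unstimulated WT replicate 3 (0.57) or unstimulated AhR-KO replicate 2 (0.58).

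Ticam2, which encodes TRAM, the bridge between TLR4 and TRIF, was the member whose own start site closed with LPS. The gene lies at 46557291 to 46574533 on chromosome 18 (minus strand) and its start site peak (46573928 to 46574621) also lies within a longer transcript of Tmed7. It held 23 to 25.3 CPM (median 23.4) in unstimulated WT and 12.8 to 16.7 (median 14.4) in LPS-treated WT, and 27.6 to 34.6 (median 30.2) and 16.2 to 20.1 (median 18.6) in AhR-KO without and with LPS. LPS libraries lay below unstimulated ones without overlap in both genotypes, with log2 changes of -0.72 (adjusted p 1.36e-11, SE 0.0679) and -0.74 (adjusted p 2.7e-12, SE 0.0661). The peak was 0.34 and 0.33 higher in AhR-KO on the log2 scale without and with LPS, short of the fold threshold. Of its 13 tested peaks, 7 fell and 3 rose with LPS in WT, and 4 fell and 2 rose in AhR-KO. All tested peaks gave 21.6% lower and 25.4% higher in WT, and 21.5% and 27.3% in AhR-KO. An intergenic peak 29.4 kb downstream fell by 1.62 in WT (SE 0.101) and 1.72 in AhR-KO (SE 0.102), from 12.3 to 15.5 CPM in unstimulated WT to 3.13 to 5.25 in LPS-treated WT. The 3 peaks that rose in WT lay upstream of the start site in the Tmed7 introns, at 1.81 to 9.24 kb.

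By genotype, 1 Ticam2 peak was a DAR without LPS and 2 with LPS, where 22.6% and 26.5% of all tested peaks were called. A peak over an exon 14.5 kb into the gene was lower in AhR-KO, at log2 -1.22 without LPS (adjusted p 2e-06, SE 0.188) and -1.07 with LPS (adjusted p 2.11e-05, SE 0.192). Its LPS change in WT (-0.63) was short of the fold threshold without unstimulated WT replicate 4 (-0.55) or 6 (-0.54) or LPS-treated WT replicate 3 (-0.53) or 4 (-0.56). A peak reaching the 3′ end of the gene, 18.4 kb from the start site, was higher in AhR-KO with LPS at 6.05 to 7.57 CPM against 2.9 to 5.38 (log2 0.77, adjusted p 4.19e-07, SE 0.109). Its change with LPS in AhR-KO (-0.59) was short of the threshold without unstimulated AhR-KO replicate 1 (-0.58) or 2 (-0.56) or LPS-treated AhR-KO replicate 3 (-0.55). An intergenic peak 21.1 kb downstream fell with LPS by 1.28 in WT and stood at -0.55 in AhR-KO, an interaction of 0.73 (adjusted p 0.00302, SE 0.17).

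Irak4, the kinase that starts the MyD88 signal, lies at chr15:94543643-94581815 (plus strand). The peak over its start site was the most accessible of the 10 per kb, holding 66.8 to 78.7 CPM in unstimulated WT and 53.3 to 59.1 in unstimulated AhR-KO, without overlap. The log2 difference of -0.31 (adjusted p 7.15e-05, SE 0.0605) was short of the fold threshold, and with LPS it was 0.00 (SE 0.0595). Further into the gene, 3 of its 10 tested peaks were lower in AhR-KO without LPS and 0 with LPS. Of all tested peaks, 12.6% were lower without LPS and 13.1% with it. The strongest of the 3, 22 kb from the start site, held 20.5 to 25.9 CPM in unstimulated WT and 12.8 to 16.3 in unstimulated AhR-KO (log2 -0.68, adjusted p 9.4e-09, SE 0.0792). With LPS the same peak held 20.2 to 25.7 and 15.1 to 20 CPM, a difference of -0.33 that was not a DAR, and the interaction of 0.35 was not called (adjusted p 0.0255, below the fold threshold).

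The intronic Irak4 peak 31.5 kb from the start site (94574676 to 94575586), with its pair of AP-1 motifs, gained signal in all LPS libraries. It ran from 1.58 to 2.65 CPM (median 1.97) in unstimulated WT and from 1.8 to 2.23 (median 1.99) in unstimulated AhR-KO. With LPS it ran from 14.3 to 26 (median 16.9) in WT and from 18.2 to 26.6 (median 21.6) in AhR-KO. This was a rise of 8.82-fold in WT (log2 3.14, adjusted p 2.8e-19, SE 0.141) and 11.1-fold in AhR-KO (log2 3.47, adjusted p 4.32e-21, SE 0.137) with no overlap between treatments. The genotypes overlapped, at -0.08 without LPS and 0.25 with LPS. A library peak was already called at this position without LPS, in 5 of 6 WT and 6 of 6 AhR-KO libraries.

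Irak2, the partner kinase that sustains the signal, spans 113638467 to 113695026 on chromosome 6 (plus strand) and had 23 tested peaks. Its start site peak (113638162 to 113638936) stayed between 15.2 and 21.5 CPM in all 24 libraries, with log2 values of 0.07 and 0.05 by genotype and -0.12 and -0.13 with LPS. The intronic peak 41.7 kb from the start site (113679942 to 113680435) closed instead. It ran from 16.7 to 19.2 CPM (median 17.4) in unstimulated WT and from 20.2 to 26.8 (median 24.5) in unstimulated AhR-KO, and with LPS from 3.49 to 4.94 (median 4.02) and from 2.68 to 4.36 (median 3.23). The fall was 4.22-fold in WT (log2 -2.08, adjusted p 1.46e-19, SE 0.0996) and 7.11-fold in AhR-KO (log2 -2.83, adjusted p 2.1e-23, SE 0.102), and the interaction of -0.75 (adjusted p 0.000412, SE 0.143) was called. The same interaction value, -0.75 (adjusted p 1.4e-05, SE 0.11), was found 8.1 kb upstream of the start site over an exon of Vhl, where the peak fell with LPS by log2 1.30 in WT and 2.04 in AhR-KO and AhR-KO stood 0.72 higher without LPS (26.3 to 34.4 CPM against 16.2 to 20.5). An intronic peak 4.66 kb into Irak2 rose by 2.31 in both genotypes (SE 0.165 and 0.148).

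The mid-gene Irak2 peak 19.8 kb from the start site (113658111 to 113658486), shown above with 2 AhR cores, was lower in AhR-KO. It held 1.63 to 4.6 CPM (median 3.83) in unstimulated WT and 1.0 to 1.57 (median 1.39) in unstimulated AhR-KO. With LPS it held 3.88 to 5.06 (median 4.54) in WT and 2.47 to 3.79 (median 2.6) in AhR-KO. The genotypes did not overlap under either treatment, with log2 differences of -1.46 without LPS (adjusted p 1e-08, SE 0.169) and -0.64 with LPS (adjusted p 0.000372, SE 0.142). LPS raised it in AhR-KO (1.12, SE 0.168) and the WT value was 0.30 (SE 0.144, not called), an interaction of 0.82 (adjusted p 0.0102, SE 0.222). A library peak was called there in 5 of 6 unstimulated WT and 6 of 6 LPS-treated WT libraries, and in 0 and 1 of 6 in AhR-KO. Among all peaks here that were lower in AhR-KO, GCGTG stood in 1 of 12 windows without LPS (8.33%) and in 2 of 10 with LPS (20%), beside 14.3% and 14.9% of all DARs of that direction.

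Traf6, the ubiquitin ligase on which the MyD88 branch converges, lies at chr2:101678429-101701669 (plus strand). Its start site peak (101678078 to 101679665) held 37.2 to 43.5, 38 to 43.1, 43.1 to 52.8 and 45.9 to 49.7 CPM, in the order unstimulated WT, unstimulated AhR-KO, LPS-treated WT and LPS-treated AhR-KO. Its log2 changes with LPS of 0.25 (SE 0.0529) and 0.21 (SE 0.0525) were no DARs. In all, 6 of 17 tested peaks rose with LPS in WT and 7 in AhR-KO, where 25.4% and 27.3% of all tested peaks rose. Among the 7, the weak peaks starting at 101692075 and 101702103 lost their calls in 4 and 2 of 24 fits that left out 1 library. A peak 9.98 kb upstream showed the largest genotype difference of the gene, with 0.488 to 1.96 CPM in LPS-treated WT and 0.122 to 0.473 in LPS-treated AhR-KO (log2 -1.88, adjusted p 1.18e-05, SE 0.324). A peak over an exon 10 kb into the gene rose with LPS in WT (1.37, SE 0.259) and stood at 0.08 in AhR-KO (SE 0.255), an interaction of -1.30 (adjusted p 0.0138, SE 0.368). Its genotype difference with LPS (-0.80, adjusted p 0.00371) changed to -0.58 without LPS-treated WT replicate 6 and was then no DAR. At 6.39 kb upstream a peak of 0.092 to 1.03 CPM rose by 0.86 in WT and 1.26 in AhR-KO, the former lost without unstimulated WT replicate 4 (0.64, adjusted p 0.0552). An intronic peak 17.6 kb from the start site was higher in AhR-KO without LPS, at 4.7 to 6.37 CPM against 2.11 to 4.42 (log2 0.80, adjusted p 5.43e-05, SE 0.153). Over an exon 20.5 kb from the start site, a peak fell with LPS in WT by 0.69 (adjusted p 3.33e-06, SE 0.118).

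Irak3 encodes IRAK-M, the pseudokinase that restrains the pathway, and had both the most tested peaks of the 10 genes and the most that rose with LPS. The gene spans 120141648 to 120202130 on chromosome 10 (minus strand). Of its 27 tested peaks, 12 rose and 3 fell with LPS in WT, and 15 rose and 2 fell in AhR-KO. All tested peaks gave 25.4% higher and 21.6% lower in WT, and 27.3% and 21.5% in AhR-KO. Summed over the 27 Irak3 peaks, accessibility was 253 ± 7.62 CPM in unstimulated WT and 246 ± 6.93 in unstimulated AhR-KO. With LPS it was 321 ± 24.4 in WT and 368 ± 26 in AhR-KO (SD, n = 6). The start site peak (120200951 to 120203127) held 33.2 to 39.5 and 33.2 to 38.3 CPM without LPS in WT and AhR-KO, and 41.5 to 49.9 and 44.7 to 56.1 with LPS. LPS and unstimulated libraries did not overlap there, although the log2 changes of 0.34 (adjusted p 6.22e-06, SE 0.0601) and 0.50 (adjusted p 2.76e-09, SE 0.0596) were short of the fold threshold.

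The peak 2.68 kb upstream of Irak3 (120204583 to 120205039), in an intron of Tmbim4 and with 2 AP-1 motifs in its window, had the largest change of all 138 peaks. It held 0.462 to 0.795 CPM (median 0.717) in unstimulated WT and 0.629 to 1.06 (median 0.84) in unstimulated AhR-KO. With LPS it held 7.55 to 14.7 (median 8.39) in WT and 12.6 to 19.2 (median 17.2) in AhR-KO. A library peak was called in 0 of 12 unstimulated and 12 of 12 LPS libraries. The rise was 14.4-fold in WT (log2 3.84, adjusted p 6.31e-17, SE 0.203) and 19.6-fold in AhR-KO (log2 4.29, adjusted p 1.41e-19, SE 0.183). With LPS it was higher in AhR-KO by 0.74 on the log2 scale (adjusted p 2.76e-05, SE 0.132), although the WT and AhR-KO libraries overlapped, and the interaction of 0.45 was not called (adjusted p 0.376).

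Inside Irak3, an intronic peak 10.9 kb from the start site held 5.05 to 7.81 CPM in unstimulated WT and 17.8 to 22.6 in LPS-treated WT, and 4.17 to 6.53 and 22 to 27.8 in AhR-KO without and with LPS. Its log2 changes were 1.68 (adjusted p 4.51e-17, SE 0.0984) and 2.13 (adjusted p 1.6e-20, SE 0.0968), and another, 50.4 kb from the start site, changed by 1.92 (SE 0.114) and 2.08 (SE 0.109). Not every intronic peak opened: 8.6 kb from the start site 1 peak was lower in AhR-KO without LPS, at 6.44 to 6.91 CPM against 8.96 to 11.8 (log2 -0.67, adjusted p 5.57e-06, SE 0.11), and fell with LPS in WT by 0.83 (SE 0.108). Of the 27 Irak3 peaks, 5 were higher and 1 lower in AhR-KO with LPS, and 2 were higher and 1 lower without. The most significant of these, an intergenic peak 72.7 kb from the start site, held 7.92 to 8.7 CPM in LPS-treated WT and 10.3 to 16.2 in LPS-treated AhR-KO (log2 0.71, adjusted p 4.1e-08, SE 0.0888). All tested peaks gave 13.4% higher and 13.1% lower with LPS (26.5% in either direction), and 9.95% and 12.6% without (22.6%). Among the 5 higher with LPS, the weak peak starting at 120158352 lost its call in 6 of 24 fits that left out 1 library (adjusted p up to 0.105, edgeR). The peak starting at 120149333 lost its call in 2 of 24 (log2 down to 0.57).

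**Figure D4:**
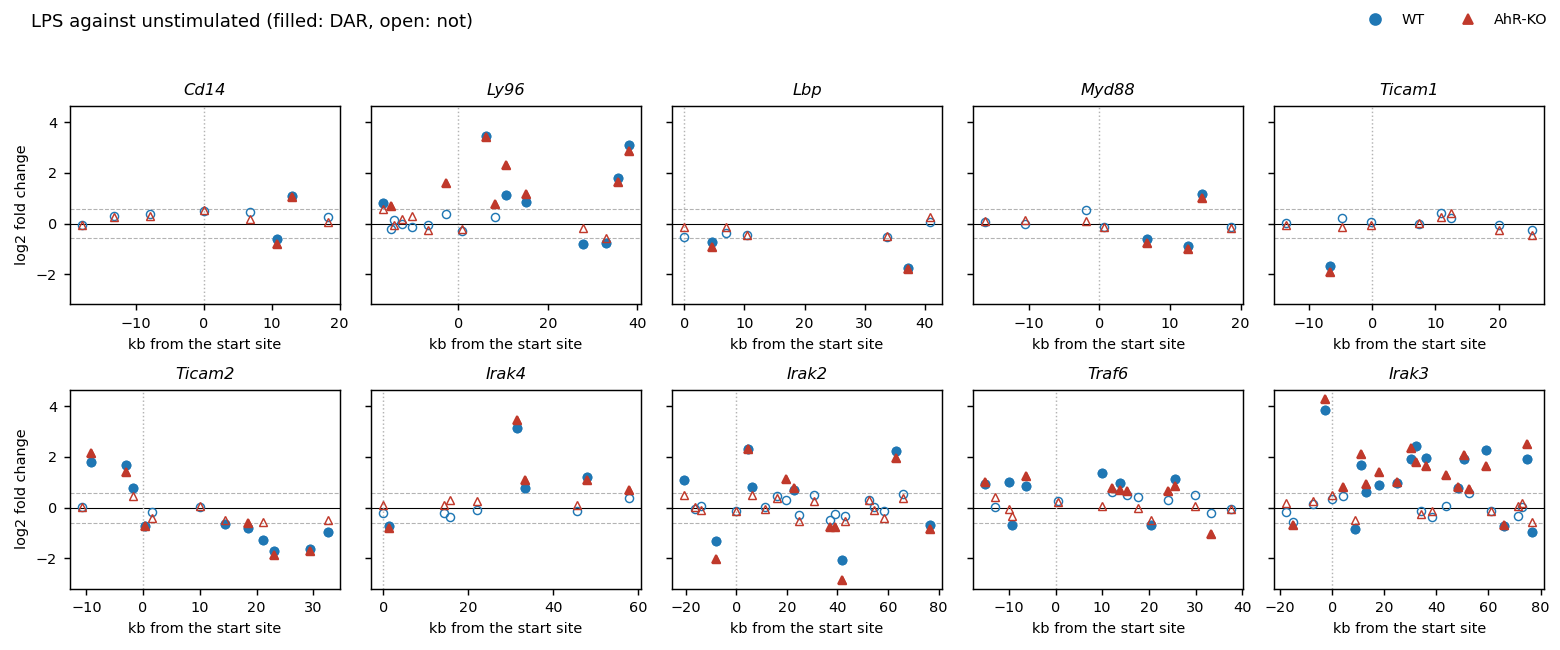
Log2 fold change of LPS against unstimulated for each tested peak, by its distance in kb from the member's start site (positive is downstream), in WT (circles) and AhR-KO (triangles). Filled symbols are DARs and dashed lines mark the 1.5-fold threshold. The highest symbols are the Irak3 peak 2.68 kb upstream (3.84 and 4.29), and those of Ticam2 run mostly downward on the gene side of its start site.

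**Figure D5:**
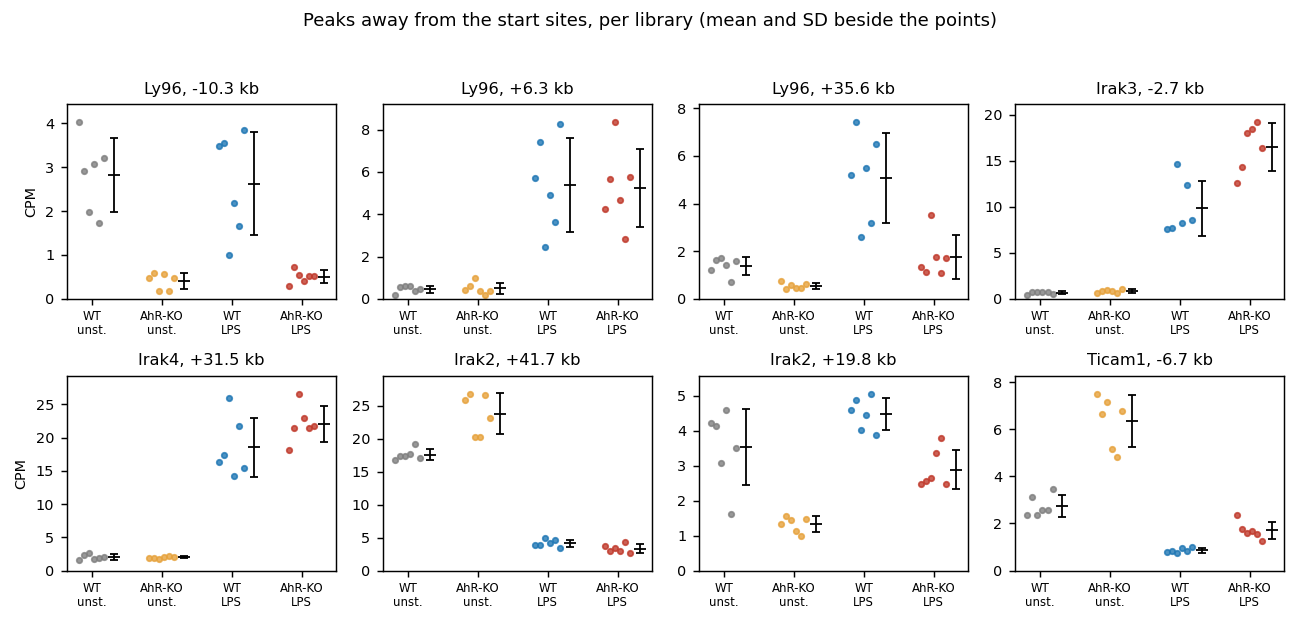
CPM of 8 peaks away from the start sites, with 1 point per library and the mean and SD (n = 6) beside the points; titles give the distance from the start site, with a minus sign for upstream. The Irak3 and Irak4 peaks and the Ly96 peak 6.26 kb downstream separate LPS from unstimulated libraries. Within each treatment, the Ly96 peak 10.3 kb upstream and the Irak2 peak 19.8 kb downstream separate AhR-KO from WT. The Ticam1 peak separates genotypes within each treatment and treatments within each genotype.

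Motif letters at the DARs were counted against all DARs of the same direction. The AP-1 letters stood in 11 of the 37 windows that rose with LPS in WT (29.7%) and in 12 of 42 in AhR-KO (28.6%), where all tested DARs that rose gave 35.6% and 35%. They stood in 1 of 24 (4.17%) and 1 of 19 (5.26%) of those that fell, where all DARs that fell gave 7.58% and 7.62%. The NF-κB letters were in 1 (2.7%) and 2 (4.76%) of the rising windows, where all DARs that rose gave 3.94% and 3.28%. These shares lie near those of the other DARs.

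The rest of the pathway was read from 31 further genes in 3 lists. At receptors and their chaperones (Tlr4, Cd180, Ly86, Unc93b1, Cnpy3, Hsp90b1 and Cd36), 26 of 130 tested peaks rose (20%) and 18 fell (13.8%) with LPS in WT, and 48 rose (36.9%) and 19 fell (14.6%) in AhR-KO. All tested peaks gave 25.4% and 21.6% for WT, and 27.3% and 21.5% for AhR-KO. By genotype 12 were higher (9.23%) and 7 lower (5.38%) in AhR-KO without LPS, where all peaks gave 9.95% and 12.6%. With LPS 32 were higher (24.6%) and 6 lower (4.62%), 14 of the 32 at the scavenger receptor gene Cd36, where all peaks gave 13.4% and 13.1%. At 16 genes of adaptors and kinases, 59 of 229 peaks rose (25.8%) and 27 fell (11.8%) with LPS in WT, and 67 rose (29.3%) and 30 fell (13.1%) in AhR-KO. Genotype gave 17 higher (7.42%) and 19 lower (8.3%) without LPS and 14 higher (6.11%) and 23 lower (10%) with it, each share below that of all peaks. The third list held 8 genes entered as restraints of the pathway (Tollip, Sigirr, Sarm1, Peli1, Tnfaip3, Tnip1, Cyld and Otud7b). Peli1 had the most consensus peaks of these (25), and whether each gene restrains the pathway in these cells was not tested. There, 61 of 119 rose (51.3%) and 9 fell (7.56%) with LPS in WT (median log2 0.62), and 62 rose (52.1%) and 9 fell in AhR-KO (median 0.65). By genotype 23 were higher (19.3%) and 7 lower (5.88%) without LPS, and 26 higher (21.8%) and 1 lower (0.84%) with it. The interaction was called up and down at 19 and 7 peaks of the receptors (14.6% and 5.38%), 10 and 9 of the adaptors and kinases (4.37% and 3.93%) and 5 and 4 of the restraints (4.2% and 3.36%), beside 5.83% and 4.58% of all peaks. Peaks of a gene share their locus and are no replicates, so these shares are descriptions.

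Of the 31 genes, 29 had a tested start site peak, and 2 of these rose with LPS in WT, and 2 rose and 3 fell in AhR-KO. Over all start site peaks of the series, 4.12% rose and 6.29% fell in WT, and 4.67% and 11.2% in AhR-KO. By genotype 1 of the 29 was higher without LPS (all start site peaks 1.99%), 0 were called with LPS, and the interaction was called downward at 1 (2.5%). Tlr4, the signalling receptor itself, held 80.9 ± 2.88 CPM in unstimulated WT, 73.3 ± 4.32 in unstimulated AhR-KO, 76.7 ± 3.52 in LPS-treated WT and 77.5 ± 3.25 in LPS-treated AhR-KO (SD, n = 6), with log2 values between -0.14 and 0.08 in the 4 comparisons. Tnip1, whose product works with the deubiquitinase A20, rose from 13.4 ± 0.803 to 31.1 ± 1.7 CPM in WT (log2 1.21, SE 0.0635) and from 14.1 ± 0.496 to 29.7 ± 2.82 in AhR-KO (1.08, SE 0.0623). Ikbke, an NF-κB and interferon pathway kinase, rose by 0.83 (SE 0.0707) and 0.68 (SE 0.0686). Ly86 encodes MD-1, a relative of MD-2 that partners CD180. Its start site peak was higher in AhR-KO without LPS (8.75 ± 0.684 CPM against 5.18 ± 0.646, log2 0.76, adjusted p 1.29e-05, SE 0.131), at 3.67 ± 0.509 against 3.65 ± 0.982 CPM with LPS, and fell with LPS in AhR-KO by 1.25 (SE 0.13), an interaction of -0.74 (adjusted p 0.00609, SE 0.188). Tab1, a partner of the kinase TAK1, fell with LPS in AhR-KO by 0.79 (SE 0.0741) on the log2 scale, while the WT value was -0.33.

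The authors also called peaks in each library alone. Of the 143 consensus peaks, 72 had a library peak in all 6 unstimulated WT libraries and 77 in all 6 unstimulated AhR-KO libraries, against 89 in LPS-treated WT and 85 in LPS-treated AhR-KO. No library peak was called in any library at 37 and 41 of them without LPS, and at 30 and 27 with LPS. The same counts were not made over all 184158 consensus peaks, so these have no background beside them. The LPS libraries had higher median depth (medians of 30.4 and 25 M counts in WT and AhR-KO, against 20.8 and 22.6 M), and the part of depth in these counts was not tested.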

How the data were processed

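ATAC-seq was measured in 24 libraries of BMDMs. Per the submitters' processing notes and the study's methods, the authors demultiplexed the reads with bcl2fastq 2.20.0, ran the nf-core atacseq pipeline on mm10, called broad peaks with MACS2 in each library and merged them. The authors deposited 1 table of raw counts per consensus peak (read pairs, featureCounts, a pair counted for every peak it overlapped) and 1 peak list per library with −log10 q-values, from 1.0 upward. No replicates were pooled. Starts in the table equalled starts in the lists, which count from 0, at all 184158 peaks, so 1 was added and positions are 1-based.

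Here the counts were tested with edgeR 4.0.16 (R 4.3.3) on all 24 libraries: filterByExpr by group (174193 peaks kept), TMM factors (0.976 to 1.04), and the robust quasi-likelihood test with group as the only term. P-values were adjusted over all tested peaks (Benjamini-Hochberg). The SE is the log2 fold change divided by the square root of F. CPM uses the TMM-normalized total. Total counts of 8.54 to 34.6 M per library set the precision, and pairs of libraries within a group differed by more than sampling noise (chi-square per peak at least 1.26 over 60 pairs).

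Peaks named are each gene's start site peak, its strongest peak, and per comparison its called peak with the smallest p; the peaks described beyond these (Cd14 at 10.8 kb, Ly96 at 35.6 and 38.1 kb and 15.1 kb upstream, Irak3 at 2.68 kb upstream and 50.4 kb, Irak2 at 4.66 kb, and the Ticam2 peaks 1.81 to 9.24 kb upstream) were chosen after their values were seen. For pathway genes they are Tlr4 and, per comparison and direction, the pair of called start site peaks with the smallest p. Members, lists and motifs were chosen with earlier results of these data known. Alternatives were RLE factors, DESeq2 1.42.0, no filter, a replicate block, fits of 2 groups, each library left out, fold thresholds of 2 and none, a 5 kb flank and assignment by nearest start site. Replicate numbers were not taken as pairs, since the correlation of same-numbered libraries was not above 0.1 for every pair. Sequences came from GRCm38, and no sequence is given for Cd14 and Ticam2.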

Additional observations from a re-analysis of the deposited data

Results flagged for a closer look

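Interactions of genotype and LPS were called at 8 of 138 tested peaks (5.8%, all peaks 10.4%), where the LPS change differed between WT and AhR-KO by a test of the difference itself (edgeR). The 43 named peaks hold 7 of these, since each gene's called peak with the smallest p in each comparison, the interaction included, was named by rule. The Ly96 peaks at 16685298 to 16685470 and 16698720 to 16698890 had interactions of 1.22 (adjusted p 0.00456) and 1.17 (adjusted p 0.00776). The Ticam2 peak at 46552845 to 46554050 had 0.73 (adjusted p 0.00302). At Irak2 the values were -0.75 (adjusted p 1.4e-05) at 113629833 to 113630898, 0.82 (adjusted p 0.0102) at 113658111 to 113658486 and -0.75 (adjusted p 0.000412) at 113679942 to 113680435. The Traf6 peak at 101688147 to 101688772 had -1.30 (adjusted p 0.0138).

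Single libraries stood apart from the other 5 of their group at 8 of 172 group and peak combinations by the size of the gap to the nearest library (Dixon's 95% criterion), where chance flags about 1 group in 20. WT unstimulated replicate 5, the library with the fewest counts, accounts for 3: it was highest at the Cd14 peak 36713318 to 36714366 (7.21 CPM, next 5.47) and at the Lbp peak 158346393 to 158348339 (6.75, next 5.12) and lowest at the Ticam2 peak 46552845 to 46554050 (3.84, next 5.5). WT unstimulated replicate 6 was highest at the Ticam2 peak 46544455 to 46545738 (15.5, next 13.2). WT LPS replicate 5 was lowest at the Ly96 peak 16702736 to 16703437 (4.87, next 5.7), and AhR-KO LPS replicate 4 at the Myd88 peak 119326669 to 119327031 (7.72, next 9.21). AhR-KO unstimulated replicate 5 was lowest over the Traf6 start site (38, next 41.4), and AhR-KO LPS replicate 5 highest at the Traf6 peak 101697917 to 101699878 (6.03, next 4.73).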

How the results depend on the processing

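Calls at named peaks held under RLE factors, DESeq2, no filter, the replicate block and fits of 2 groups, apart from the Lbp start site peak (-0.53 with RLE factors and with DESeq2). Counts of called peaks moved by more than 1.5 times in these cases. RLE factors and DESeq2 gave 16 and 14 peaks higher in AhR-KO without LPS in place of 9, where all peaks gave 11.9% and 11.1% in place of 9.95%. A fold of 2 gave 4 lower and 2 higher (AhR-KO, unstimulated), 4 lower and 0 higher (AhR-KO, LPS), 7 lower and 23 higher (LPS, WT), 8 lower (LPS, AhR-KO) and 1 lower and 2 higher (interaction); with no fold threshold these were 24 and 38, 24 and 40, 43 and 58, 37 lower, and 5 and 16. The 0 comes from the fold threshold, since edgeR called 40 of these peaks higher without one. Peaks within 5 kb (79 tested) gave 4 higher (AhR-KO, unstimulated), 5 lower (AhR-KO, LPS), 10 lower and 24 higher (LPS, WT) and 8 lower (LPS, AhR-KO), and peaks whose nearest start site is the member's (81 tested) gave 3 higher (AhR-KO, unstimulated), 15 lower (LPS, WT), 9 lower (LPS, AhR-KO) and 1 lower (interaction). These last subsets hold fewer peaks. Shares over all tested peaks were not counted at the other fold thresholds or for these subsets, so those counts have no background beside them.

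Leaving out 1 library at a time gave 10 to 13 lower and 9 to 12 higher (AhR-KO, unstimulated), 8 to 10 and 10 to 15 (AhR-KO, LPS), 21 to 25 and 37 to 40 (LPS, WT), 18 to 22 and 40 to 43 (LPS, AhR-KO), and 3 to 4 and 4 to 6 (interaction). With the replicate number as a block, all calls were kept in the 4 pairwise comparisons (21, 22, 61 and 61), and the interaction gave 9 in place of 8. This block gave each number 1 effect shared by all 4 groups, so WT and AhR-KO libraries of different mice shared it. A pairing of cultures within a genotype was not modelled. Whether same-numbered libraries with and without LPS share an animal is not given in the sources used here. Same-numbered libraries correlated at -0.144 to 0.062 (genotype, unstimulated) and -0.127 to 0.268 (genotype, LPS). Between LPS and unstimulated WT they correlated at 0.049 to 0.343 (over 0.1 in 5 of 6 pairs, mean 0.234 against -0.045 for other numbers). In AhR-KO the range was 0.009 to 0.21 (over 0.1 in 3 of 6 pairs, mean 0.108 against -0.021). At most 3 of 6 pairs correlated best with their own number. Library peaks covering 50% or more of the consensus peak were present in all 6 libraries at 33, 43, 62 and 51 positions (WT and AhR-KO unstimulated, WT and AhR-KO LPS). Weak peaks under about 1 CPM rest on few read pairs. Of the peaks described after their values were seen, those of Cd14 at 10.8 kb and Ly96 at 15.1 kb upstream lost calls, as given with their values. The Irak3 peaks starting at 120149333 and 120158352 are given only for their lost calls, with the other Irak3 peaks. So are the Traf6 peaks starting at 101692075 and 101702103 and the Ly96 peak starting at 16680874, each with its gene.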
